A study of Mus musculus with 2 samples.

Results

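The 10 genes described here encode glucose transporters and enzymes of glycolysis (Slc2a1, Slc2a3, Hk1, Hk2, Pfkl, Pfkp, Aldoa, Gapdh, Eno1 and Ldha), and they were chosen by name from the 22350 protein-coding genes that GENCODE M1 places on mouse chromosomes 1 to 19 and X. The measurement at each gene was the set of DNaseI hypersensitive sites (DHS) that overlapped its gene body or the 20 kb on either side. In total 61 of the 47542 DHS of the list lay in these windows, and no DHS was shared by 2 windows. All 10 genes had a DHS at their own promoter and over at least 1 of their own transcription start sites (TSSs). Of all protein-coding genes, 57.0% had a DHS at their promoter and 46.6% had one over a TSS.

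DHS were mapped in B cells from the spleen of 8 weeks old C57/Bl6 mice with both copies of Trp53 (Trp53+/+), the gene for p53. The cells were mock treated, that is, not irradiated, and had been enriched on magnetic beads against the B cell surface protein B220. The enzyme DNaseI cuts DNA in open chromatin more readily than DNA wrapped in nucleosomes, so that short fragments pile up at active promoters and enhancers. The series holds 1 DNaseI library and 1 input library of the same genotype and treatment, there is no replicate and no second condition, and the number of animals is not given in the sources used here.

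All values below therefore describe a single library, no p-value is given, and the sequencing depth is unknown because the list holds no read counts. The score is the authors' own value for each peak, on a scale that is not stated, and it had a median of 32.65 and a maximum of 619.44. It was used only to rank peaks within this list. A gene without a DHS is one at which no peak was called, which is not the same as closed chromatin.

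The cell type in the labels was checked against genes that mark spleen cells. All 5 B cell genes reported here (Cd79a, Cd79b, Ms4a1, Pax5 and Cd22) had a promoter DHS, with highest scores between 83.97 and 265.27. Of 6 T cell genes, Cd3e, Cd3g, Cd8a and Cd4 had none, while Lck (92.81) and Cd5 (97.67) did. At Lck 7 TSSs were inside a DHS, with a score of up to 41.42, and at Cd5 none was. Of 6 myeloid genes, Lyz2, Mpo and S100a8 had no promoter DHS, the other 3 had one with scores up to 42.54, and 0 had one over a TSS. Of 5 erythroid genes reported here, Klf1 (177.81) had a promoter DHS, which covered none of its TSSs, while Hba-a1, Epor, Alas2 and Slc4a1 had none. The part of other cell types in the DHS of the glycolysis genes was not tested.

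Glucose enters cells through facilitative transporters and is trapped inside when hexokinase adds a phosphate group. Phosphofructokinase commits the sugar to glycolysis, aldolase splits it, glyceraldehyde-3-phosphate dehydrogenase and enolase act on the resulting small molecules, and lactate dehydrogenase turns the end product pyruvate into lactate. Most steps are served by several isozymes, encoded by separate genes that differ between tissues, and lymphocytes are known to raise glucose uptake and glycolysis when they are activated to divide.

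**Figure D1:**
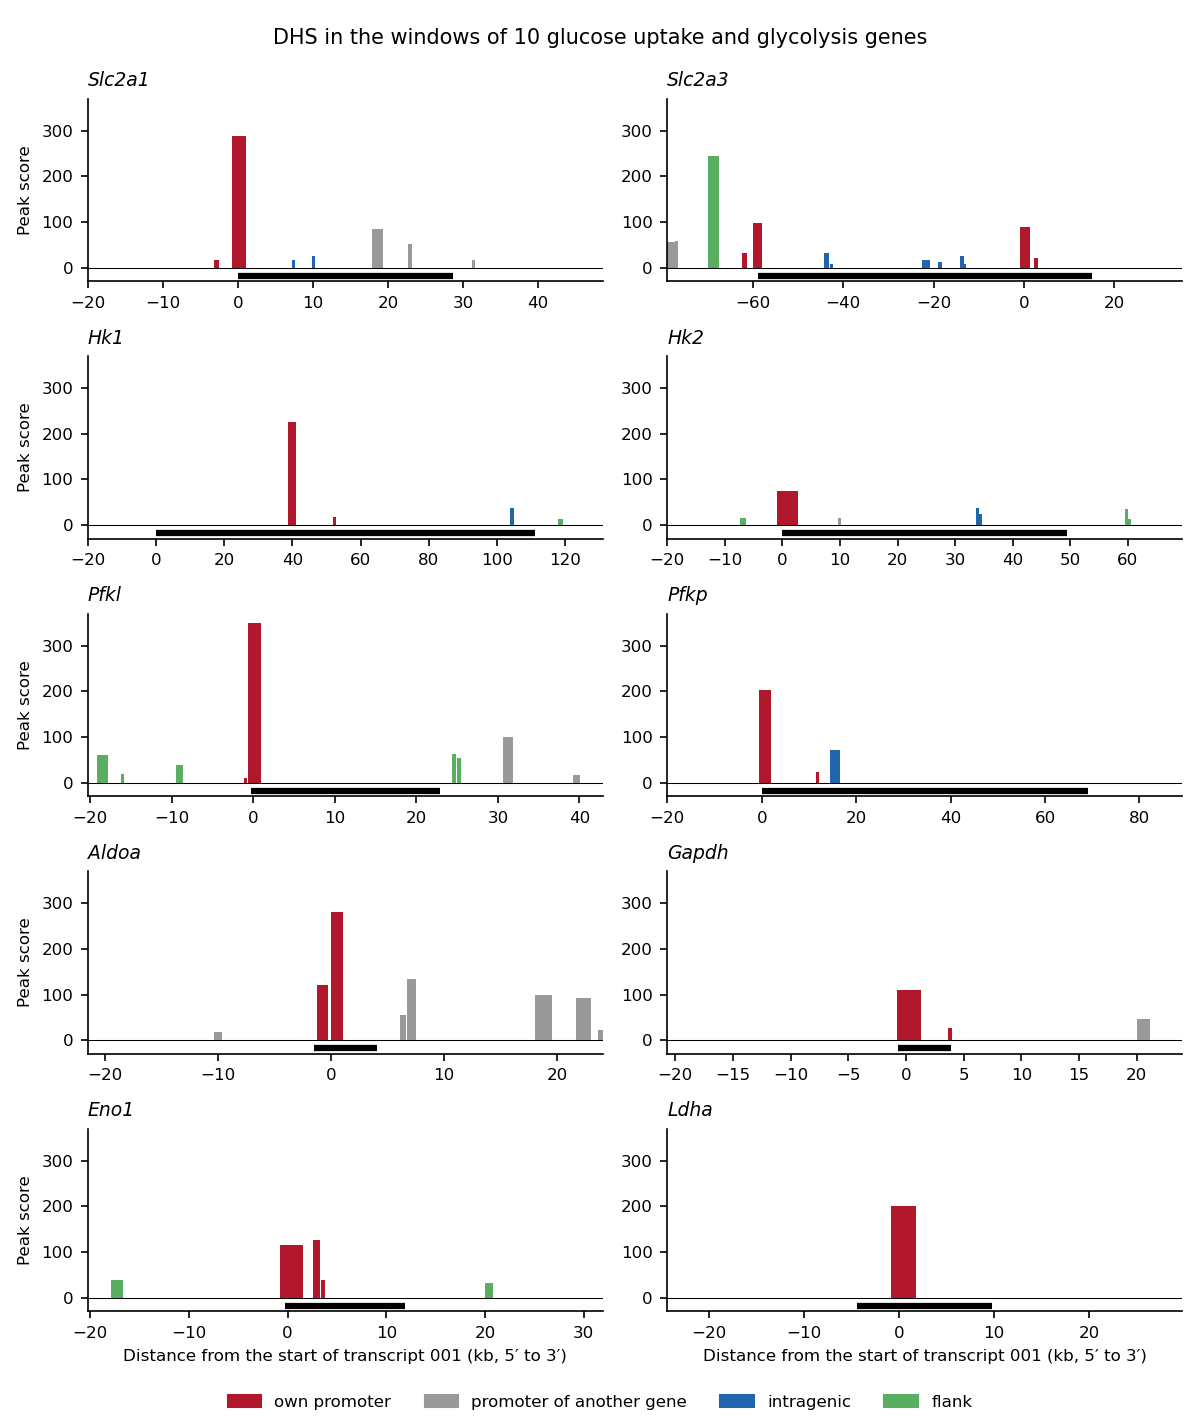
The 61 DHS in the windows of the 10 genes, 1 panel per gene. The x axis is the distance from the start of transcript 001 in kb, running 5′ to 3′ along the gene to the limits of the window, and the y axis is the peak score. Bars stand at the DHS centre, are as wide as the DHS (narrow ones are widened to stay visible) and are coloured by class, and the black line is the gene body. Each panel has at least 1 red bar at the gene's own promoter, from 74.81 at Hk2 to 350.0 at Pfkl, and Ldha has no other DHS.

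Promoters were compared with those of all genes. A promoter DHS here is one that overlaps a window around any annotated TSS of the gene, reaching 5 kb before the TSS and 2 kb past it. Of the 10 genes 10 had one, with an exact 95% binomial interval of 69.2 to 100% for counting error alone. The background was 57.0% of all 22350 genes, and 85.4% of the 8848 genes with a CpG-rich promoter. Because the 10 genes were not drawn at random but chosen with earlier results of these data known, the shares are set side by side as a description only. CpG-rich means a GC content of 55% or more in the 1000 bp centred on the start of transcript 001, together with a CpG ratio (observed over expected CpG dinucleotides) of 0.6 or more, and 6 of the 10 genes met both. At the other 4, Slc2a3, Hk1, Pfkp and Gapdh, the ratio was 0.47, 0.11, 0.56 and 0.54. A DHS lay over at least 1 TSS in 46.6% of all genes.

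The highest promoter score of each gene was above the median of all genes with a promoter DHS, 101.22, in 8 of the 10. Pfkl had the highest of the 10 at 350.0, followed by Slc2a1 at 288.32, Aldoa at 280.77, Hk1 at 226.52, Pfkp at 203.62, Ldha at 200.34, Eno1 at 126.77, Gapdh at 110.1, Slc2a3 at 98.32 and Hk2 at 74.81. The median of the 10 was 201.98. Among genes with a CpG-rich promoter and a promoter DHS the median was 114.32. With 1 library there is no replicate error against which neighbours in this order could be separated, and Pfkp and Ldha, for example, stood at percentiles 96.8 and 96.6 of all peaks.

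The 61 DHS were divided by where they lay. A DHS was counted to the promoter of the gene itself in 21 cases, to the promoter of another gene in 15, to the rest of the gene body in 12 and to the flanks in 13. Their median scores were 98.32, 55.67, 24.79 and 35.09, in that order, and their median widths 1057, 814, 524 and 576 bp. High scores in these windows were therefore mostly those of the promoter classes, and the highest DHS of the gene body class, in an intron of Pfkp, scored 71.45. Classes were assigned in the order given, so a DHS inside a gene could count to a promoter. An intronic DHS of Slc2a1 (85.25) counted to the promoter of Mir1957. An exonic DHS of Eno1 (126.77), centred 2197 bp from the nearest TSS, counted to its own promoter. The flank class held 1 exception, a DHS with a score of 244.54 upstream of Slc2a3.

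The glucose transporter genes differed in layout. Slc2a1 (ENSMUSG00000028645.4, mm9 chr4:118781316-118809935, plus strand) encodes GLUT1, the transporter of basal glucose uptake in many cell types. Its 4 annotated TSSs all lay in a single DHS of 1922 bp at chr4:118780506-118782427, which covered the first exon and scored 288.32, at percentile 98.9. The other DHS at its promoter was at −2.9 kb and scored 17.25. Both DHS of the gene body that were not at another gene's promoter were intronic and weak, with scores of 16.89 and 25.58. A further 3 DHS in the window, the highest an intronic one at 85.25, lay in the promoter windows of Mir1957, Gm12867 and Gm12868.

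Slc2a3 (ENSMUSG00000003153.4, chr6:122677827-122751658, minus strand) encodes GLUT3, a transporter of high glucose affinity known from neurons and leukocytes. It had 13 DHS in its window, more than any other of the 10 genes and at percentile 97.7 of all genes. The window was long, at 113.8 kb, and the density of 1.14 per 10 kb was at percentile 87.5. At or above the median score it had 6 DHS, as many as Pfkl and Aldoa. Of its 8 TSSs, 6 were inside a DHS, in 2 separate places, and the starts of transcripts 006 and 007, neither annotated as protein-coding, were in none. A DHS at chr6:122691379-122693624, with a score of 89.28, held 5 TSSs, transcript 001 among them, and a DHS at chr6:122750811-122752616, with a score of 98.32, held the start of transcript 008, centred at −59.0 kb from the start of transcript 001. The promoters at these places differed in sequence. The 1 kb around the start of transcript 001 had 49.1% GC and a CpG ratio of 0.47, and that around transcript 008 had 61.6% and 0.79.

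Weaker DHS accompanied both promoters, with scores of 20.12 and 32.82. The 6 DHS between these promoters that belonged to neither lay in introns, with scores from 7.7 to 32.26. The DHS with the highest score of the window, 244.54 at percentile 98.1, was in the upstream flank at chr6:122760170-122762718, and it was 2549 bp wide. Its centre was at −9786 bp from the start of transcript 008 and 8488 bp from the nearest TSS, that of the neighbouring gene Foxj2. To which of these genes it belongs was not tested. The last 2 DHS of the window, with scores of 59.02 and 56.06, lay in the promoter windows of Foxj2 and Gm4485. Leaving out the transcripts that begin far upstream, an alternative chosen after the data were seen, took 8 DHS from the window of Slc2a3, so that the 10 windows then held 53. Slc2a3 then no longer had the most DHS of the 10 genes. The 200 bases before the start of transcript 008, on the strand of the gene at chr6:122751659-122751858, are shown with CpG dinucleotides in capitals. They hold 30, the most among the starts for which these 200 bases were examined. In 1 kb, the start of Slc2a1 transcript 001 was higher, with 62.9% GC and a CpG ratio of 0.81.
Slc2a3 transcript 008: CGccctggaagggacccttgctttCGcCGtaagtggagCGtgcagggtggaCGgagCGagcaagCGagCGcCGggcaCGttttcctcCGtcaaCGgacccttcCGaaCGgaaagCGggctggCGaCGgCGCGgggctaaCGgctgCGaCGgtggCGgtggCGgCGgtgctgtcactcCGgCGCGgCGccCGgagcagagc

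The hexokinase genes differed in where their promoter DHS lay. Hk1 encodes the form found in most tissues, and Hk2 encodes the form known from muscle, fat and many dividing cells. Hk1 (ENSMUSG00000037012.11, chr10:61731603-61842656, minus strand) had 5 DHS in a window of 151.1 kb, or 0.33 per 10 kb. Hk2 (ENSMUSG00000000628.4, chr6:82675019-82724448, minus strand) had 7 in 89.4 kb, or 0.78 per 10 kb. The median of all genes was 0.33 per 10 kb. The difference of 2 DHS is small, and it depended on the flank (3 and 4 DHS with 5 kb on either side).

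At Hk1 the promoter DHS was not at the start of transcript 001. The gene has 13 distinct annotated TSSs, and 3 of them were inside a DHS. The starts of transcript 014 and of 1 other coding transcript lay in a DHS of 2299 bp at chr10:61801705-61804003 with a score of 226.52, at percentile 97.6, centred 39.8 kb downstream of the start of transcript 001. The start of transcript 017 lay in a DHS with a score of 18.16. No DHS was called over the other 10, among them every start further upstream, where transcripts 001 to 013 and 3 more begin. The nearest DHS to the start of transcript 001 was 38653 bp away.

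The sequence at these starts also differed. GC content in 1 kb was 47.0% with a CpG ratio of 0.11 at transcript 001, and 60.7% with 0.55 at transcript 014. Repeated sequence was scarce there, as at most 5.7% of the 31-base words within 500 bp of any Hk1 start occurred more than once in the assembly. The DHS at transcript 014 also overlaps the promoter of 2210417K05Rik, a noncoding gene on the other strand, and a DHS does not tell strands apart.

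At Hk2 a single DHS of 3618 bp at chr6:82721704-82725321 held 3 of the 4 TSSs, transcript 001 included. It was the widest of the 61 DHS and at percentile 99.5 of all widths, yet its score of 74.81 was the lowest top score among the 10 promoters, at percentile 76.8. A pair of intronic DHS at 33.8 and 34.4 kb downstream scored 37.01 and 24.9, a pair in the downstream flank 35.09 and 12.19, and a DHS at −6.8 kb scored 15.85. A further DHS, with a score of 14.63, lay in an intron at the start of Gm17034. Thus Hk1 had the higher and Hk2 the wider promoter DHS.

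The 200 bases before these 3 starts are shown on the strand of each gene with CpG dinucleotides in capitals, to set the Hk1 start without a DHS beside the starts that have one. They lie at chr10:61842657-61842856, chr10:61803291-61803490 and chr6:82724449-82724648 and hold 1, 8 and 21 CpG dinucleotides.
Hk1 transcript 001 (no DHS): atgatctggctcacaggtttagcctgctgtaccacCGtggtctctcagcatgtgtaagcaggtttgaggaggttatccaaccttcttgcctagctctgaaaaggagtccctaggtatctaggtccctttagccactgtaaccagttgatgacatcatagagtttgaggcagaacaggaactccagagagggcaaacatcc
Hk1 transcript 014 (in a DHS): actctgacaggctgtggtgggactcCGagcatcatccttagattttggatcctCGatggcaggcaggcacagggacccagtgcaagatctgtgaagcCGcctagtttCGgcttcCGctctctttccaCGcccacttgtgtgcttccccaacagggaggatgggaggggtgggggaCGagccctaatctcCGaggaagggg
Hk2 transcript 001 (in a DHS): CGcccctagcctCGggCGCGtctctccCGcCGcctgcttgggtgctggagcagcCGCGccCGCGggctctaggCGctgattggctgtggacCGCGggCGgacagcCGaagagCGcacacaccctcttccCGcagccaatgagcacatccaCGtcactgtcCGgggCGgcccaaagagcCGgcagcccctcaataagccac

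**Figure D2:**
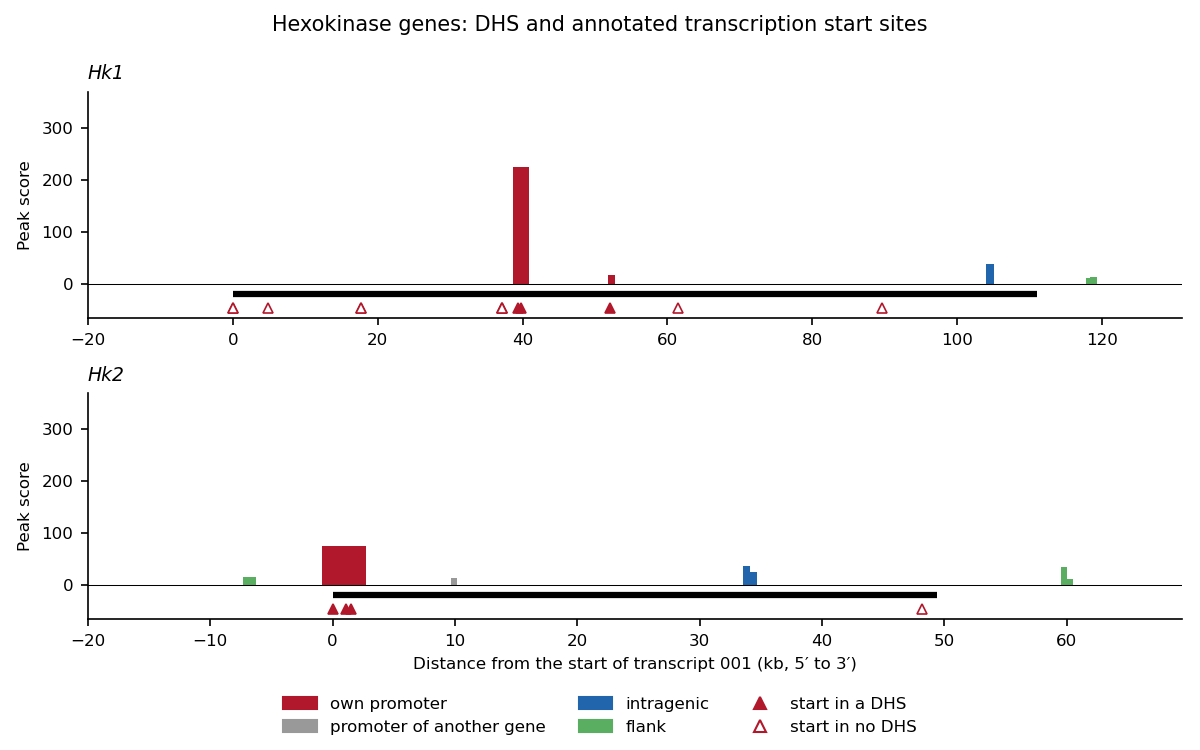
DHS and annotated TSSs of Hk1 and Hk2. The x axis is the distance from the start of transcript 001 in kb and the y axis the peak score. Bars are DHS coloured by class (narrow ones widened to stay visible), the black line is the gene body, and triangles under it are TSSs, filled where a DHS covers them. At Hk1 the filled triangles sit under the DHS centred at 39.8 and 52.3 kb and those upstream are open, while at Hk2 the 3 filled triangles are at the 5′ end.

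Pfkl and Pfkp encode subunits of phosphofructokinase, the main control point of the pathway. Each had a promoter DHS of high score, and their surroundings differed. Pfkl (ENSMUSG00000020277.8, chr10:77449692-77472828, minus strand), the liver-type subunit, had the highest score of all 61 DHS. It was 350.0, at percentile 99.5, in a DHS of 1594 bp at chr10:77471547-77473140 that held the starts of transcripts 001 and 004. The other 8 DHS of its window lay outside the gene body, 3 of them in the upstream flank with scores from 19.21 to 61.55 and 2 close together in the downstream flank with 53.78 and 62.74. A narrow DHS of 350 bp just upstream of the promoter DHS scored 10.41. A DHS of 99.45 was at the promoter of 1810043G02Rik and a DHS of 17.43 at that of Trpm2.

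Pfkp (ENSMUSG00000021196.7, chr13:6579014-6648023, minus strand), the platelet-type subunit, had 3 DHS in 109.0 kb. The promoter DHS at chr13:6646034-6648531 scored 203.62 and held the starts of transcripts 001 to 005. An intronic DHS of 2121 bp, 15.5 kb downstream, scored 71.45, and 1 of 439 bp near the start of transcript 006 scored 22.19. The 8 TSSs further inside the gene were in no DHS. Per 10 kb the density was 1.43 at Pfkl and 0.28 at Pfkp, at percentiles 93.1 and 46.7 of all genes.

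Aldoa, Gapdh and Eno1 encode the major aldolase, dehydrogenase and enolase of most tissues. Aldoa (ENSMUSG00000030695.7, chr7:133938748-133944265, minus strand) had 2 promoter DHS side by side. The DHS at chr7:133941744-133942800 scored 280.77 and held 5 TSSs, transcript 001 among them, and the DHS at chr7:133942999-133944009 scored 119.77 and held the starts of transcripts 002, 005 and 006. These are alternative promoters in the annotation, and a DHS was called at each. The 2 DHS lie closer together than 500 bp and become 1 when such peaks are merged. Their separation rests on the peak calls of 1 library. The other 6 DHS of the window were at promoters of other genes, with scores of 134.24 and 55.67 at Ppp4c, 98.39 near Tbx6, 93.33 at Ypel3, 23.17 near Gm9967 and 18.66 at Gm15676. This was the densest of the 10 windows, at 1.76 DHS per 10 kb and percentile 96.8 of all genes.

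At Gapdh (ENSMUSG00000057666.9, chr6:125111871-125116485, minus strand) a DHS of 2093 bp at chr6:125114521-125116613 scored 110.1 and held 5 of the 6 TSSs. A narrow DHS of 346 bp at the 3′ end of the gene (chr6:125111789-125112134) scored 25.5 and counted to the promoter only because transcript 006, annotated as not protein-coding, starts nearby. Of its 31-base words, 79.1% occurred more than once in the assembly, with up to 106 copies, and it is uncertain for that reason, since how reads with several matches were treated is not given in the sources used here. Only 4 of the 61 DHS had more than 10% repeated words. A DHS at Iffo1 scored 45.49.

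At Eno1 (ENSMUSG00000063524.7, chr4:149610830-149622988, plus strand) the DHS over the TSSs was not the highest. A DHS at chr4:149610243-149612597, 2355 bp wide, held 5 TSSs and scored 115.24. A narrower DHS of 708 bp inside the gene, 2.9 kb downstream of the start of transcript 001, overlapped an exon and scored 126.77, and its intronic neighbour at 3.6 kb scored 39.4. DHS in the flanks, at −17.3 and 20.4 kb, scored 37.63 and 32.17.

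Ldha (ENSMUSG00000063229.7, chr7:54096845-54110997, plus strand), which encodes the subunit of lactate dehydrogenase that prevails where lactate is made, had a single DHS in its whole window. It was 2633 bp wide, at chr7:54100332-54102964, held 6 of the 7 TSSs and scored 200.34, at percentile 96.6. The remaining TSS, that of transcript 003, was 3487 bp from it. In number of DHS the window was at percentile 29.1 of all genes. A high promoter score thus stood beside an otherwise empty window at Ldha, and beside more DHS in the windows of Slc2a1, Pfkl and Aldoa. Of these DHS, 3 at Slc2a1, 2 at Pfkl and 6 at Aldoa lay at promoters of other genes. Counting only DHS whose nearest TSS belonged to the gene, Slc2a1 had 4, Pfkl 3 and Aldoa 2, against 1 at Ldha.

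**Figure D3:**
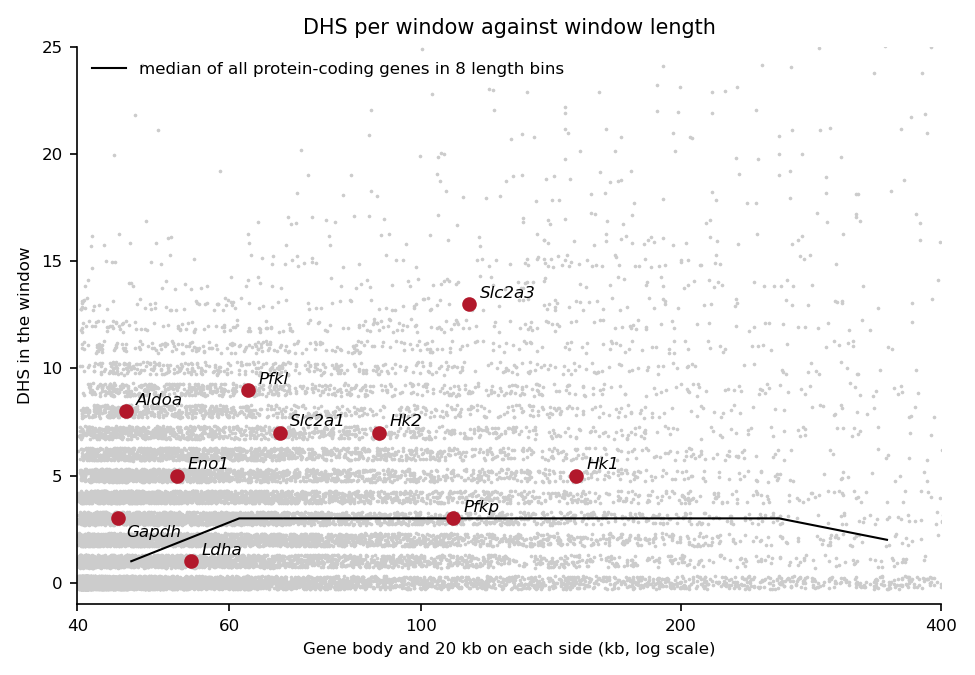
Number of DHS in each gene's window against the length of the window in kb (log scale). Grey points are protein-coding genes, jittered vertically, the black line is their median in 8 bins of length, and red points are the 10 genes. Of the red points, 7 lie above 4 DHS, from 5 at Hk1 and Eno1 to 13 at Slc2a3, while Pfkp and Gapdh have 3 and Ldha has 1. Genes with windows beyond the axes are not drawn.

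Over all 10 genes the median number of DHS per window was 6.0, against 2.0 over all genes, and the median density 0.87 against 0.33 per 10 kb. Genes with a CpG-rich promoter and a promoter DHS were closer to the 10, with medians of 4.0 DHS and 0.6 per 10 kb. A DHS in the window was found at 70.9% of all genes. Windows of neighbouring genes count here too, as 15 of the 61 DHS were at other genes' promoters. With only DHS whose nearest TSS belonged to the gene itself, 35 remained, 9 of them at Slc2a3, 4 each at Slc2a1, Hk2 and Eno1, 3 each at Hk1, Pfkl and Pfkp, 2 each at Aldoa and Gapdh and 1 at Ldha.

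The paralogs of the 10 genes, isozymes of the same steps that are known mainly from particular tissues, were examined next. Of the 12 paralogs reported here, which are not the whole of the list, 8 had a promoter DHS (66.7%, against 57.0% of all genes) and 5 had a DHS over a TSS of their own (against 46.6% of all genes). These shares were near the background. With only DHS at or above the median score, 5 of the 12 had a promoter DHS, and the share of all genes at that score was not computed. Slc2a2, the GLUT2 of liver and pancreas, Hkdc1, Ldhb and the testis form Ldhc had none. Where a DHS covered a TSS, its score was below that of every member of the same step in the case of Pfkm (19.19), Aldoc (54.15), Eno2 (24.31) and Eno3 (9.72). The exception was Slc2a4, the insulin-regulated GLUT4 of muscle and fat. Its DHS held 4 TSSs and scored 120.36, above Slc2a3 and below Slc2a1, and it also lay in the promoter window of Gm12310, as the DHS over the TSSs of Aldoc did in that of Pigs and the DHS over the TSSs of Eno3 in those of Gm12319 and Pfn1.

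Slc2a5, Hk3 and Gapdhs, the testis form, had promoter DHS of at most 30.96, 36.34 and 6.12 and none over a TSS. Some paralogs had a high score near but not over their starts. A DHS of 472.65 within the promoter window of Eno3 was also at Pfn1, Rnf167 and Slc25a11, and a DHS of 235.54 in that of Pfkm covered no TSS of Pfkm. Counts of promoter DHS at paralogs therefore include DHS that may belong to neighbours, and the score over the gene's own TSS is a narrower measure that can still be shared with a neighbour. Its median was 201.98 over the 10 genes and 24.31 over the 5 paralogs that had one, against 103.11 over all genes with one. Only 1 of the 12 paralogs, Eno2, had a CpG-rich promoter, so CpG content moved with this difference and its part was not tested.

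**Figure D4:**
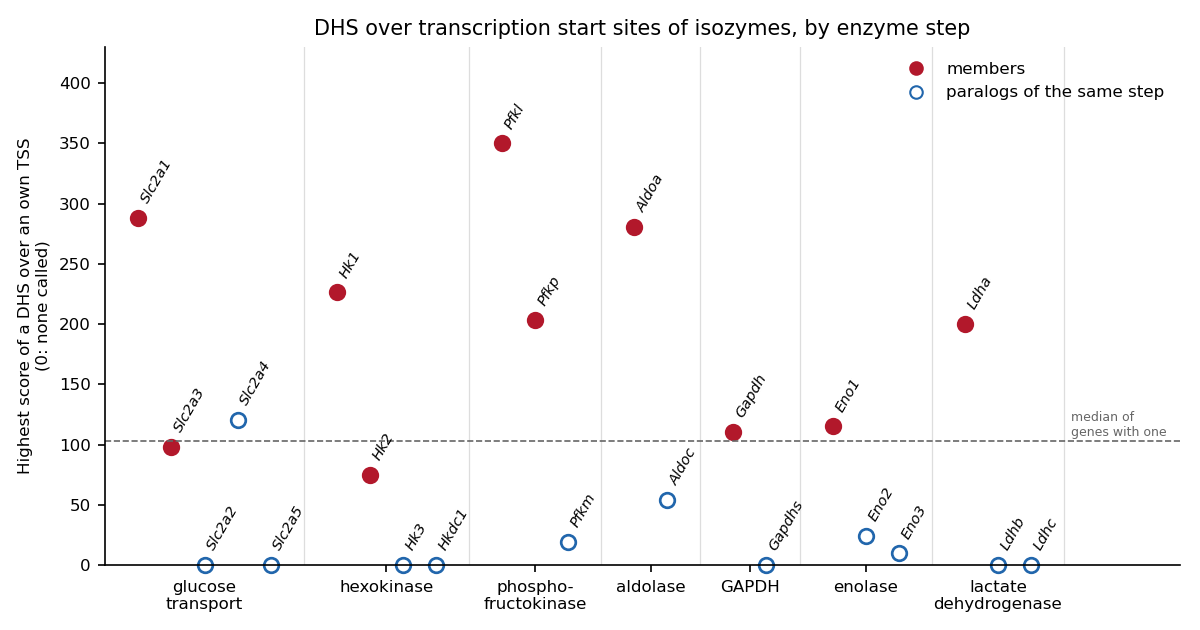
Highest score of a DHS over a TSS of the gene itself, by step of the pathway. Filled red circles are the 10 genes, open blue circles their 12 paralogs, a circle at 0 means that no DHS over a TSS was called, and the dashed line is the median of all genes with such a DHS, 103.11. All filled circles lie at 74.81 or above, and of the open circles only Slc2a4, at 120.36, does.

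The other genes of the pathway, 17 in all, covered the remaining glycolytic enzymes, the regulators of fructose-2,6-bisphosphate, lactate export, pyruvate dehydrogenase kinase and the transcription factors Hif1a and Myc. Of these, 15 had a promoter DHS (88.2%, exact interval 63.6 to 98.5%) and 11 had one over a TSS, against 57.0% and 46.6% of all genes. A CpG-rich promoter was found at 9 of the 17. Among all CpG-rich genes 85.4% had a promoter DHS, but the 17 genes are a mix of both kinds, so these shares are not matched. The part of CpG content was not tested. Those without were Pgk2, the testis form of phosphoglycerate kinase, and Pklr, the pyruvate kinase of liver and red cells. Over the 15 the median top promoter score was 119.53, with a range from 12.14 to 273.44. The highest scores over a TSS, named after the values were seen, were those of Pfkfb3 (230.33) and Pkm2 (229.54), which encode an enzyme that makes an activator of phosphofructokinase and the pyruvate kinase of most tissues.

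Short words in the promoter sequence were counted in the 300 bases from 250 before to 50 after 1 start per gene, on both strands. The start was that of transcript 001 where a DHS covered it, and at Hk1 that of transcript 014. The hypoxia response element is bound by HIF-1 and has the cores ACGTG and GCGTG, and the E-box CACGTG, bound by Myc, holds ACGTG on both strands. ACGTG was found at 6 of the 10 genes, against 27.3% of the 10414 promoters with a DHS over a TSS and 20.7% of all 22350. GCGTG was found at 7, against 53.6% and 37.7%. The E-box was found only at Ldha, which had 2, against 10.5% and 7.9%.

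Slc2a3 alone among the 10 had neither hypoxia core in this window, although the start of its transcript 008 has 1 of each in the 200 bases printed above. The GC box GGGCGG was found at 8 of the 10 (all but Hk1 and Gapdh), against 65.1% and 44.9%, and CCAAT at 4, against 38.6% and 37.7%. TATAAA, CCGGAAGT, an Ets factor word, and GAGGAAGT, a PU.1 word, were found at 0 of the 10, against 6.3%, 9.3% and 3.2% of promoters with a DHS. In 10 promoters these counts describe letters only, and they say nothing on whether a factor was bound. In the central 300 bp of the 61 DHS, ACGTG was found in 16 (26.2%, against 19.2% of all DHS) and GGGCGG in 18 (29.5%, against 18.7%). The shares were 31.1% against 26.8% for GCGTG, 34.4% against 29.7% for CCAAT, 13.1% against 11.2% for TATAAA, 8.2% against 5.9% for CACGTG, 1.6% against 3.6% for GAGGAAGT and 0.0% against 1.7% for CCGGAAGT. Of the 61 DHS, 21 were at promoters of the 10 genes and 15 at those of other genes. All DHS were not matched to this make-up, so the shares are a description only.

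The promoters of Ldha and Pfkp had the most matches to ACGTG and to GCGTG, with 5 and 4 in the window, and their 200 bases before transcript 001 are shown for that reason. They lie at chr7:54101009-54101208 and chr13:6648024-6648223, are on the strand of the gene, and lay inside the promoter DHS of each. The 200 bases hold all 5 matches of Ldha to ACGTG and 3 of the 4 of Pfkp to GCGTG. Capitals mark ACGTG and GCGTG on either strand, and in Ldha the CACGTG palindromes are among them.
Ldha transcript 001: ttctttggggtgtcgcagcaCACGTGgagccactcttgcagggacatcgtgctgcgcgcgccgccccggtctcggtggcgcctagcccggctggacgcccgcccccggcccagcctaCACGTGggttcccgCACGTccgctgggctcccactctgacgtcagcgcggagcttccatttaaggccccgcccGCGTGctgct
Pfkp transcript 001: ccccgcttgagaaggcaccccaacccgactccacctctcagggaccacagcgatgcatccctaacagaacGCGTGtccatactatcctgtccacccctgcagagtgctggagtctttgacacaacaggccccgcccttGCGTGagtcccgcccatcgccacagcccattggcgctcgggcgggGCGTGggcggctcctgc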

How the data were processed

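The data are 1 DNaseI library of B220-selected B cells from mouse spleen. The input library was not used here. The deposited list gives, for each peak, a position and a score that the authors took from the MACS peak caller. Its scale and the caller's settings for this library are not given in the sources used here. The submitters' processing notes name mm9, BWA 0.6.2 and SAMtools. The methods state that the digest was chosen by its signal-to-noise ratio in qPCR and that fragments were size-selected, so that mainly short fragments were read.

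Positions count from 1 and genes are those of GENCODE M1 on NCBI build 37. Overlap was at least 1 bp, and percentiles are among all peaks or all genes. Counting was tested on simulated peaks. Python 3.11.15, pandas 2.3.3, numpy 2.4.6, scipy 1.17.1 and pysam 0.24.0 were used. Intervals are exact binomial and cover counting error only. The members, paralogs, pathway and marker lists were chosen with earlier results of these data known. Some genes of the paralog, B cell and erythroid lists are not reported here, for reasons unrelated to their values, and enter no count. All 10 members were named, as were paralogs of the same step, listed genes without a promoter DHS, and neighbours whose promoter held a DHS of a window.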

Additional observations from a re-analysis of the deposited data

How the results depend on the processing

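The count of 10 genes with a promoter DHS was 10 in all 4 alternatives run for it. It could not have fallen within 1 kb of a TSS or at the median score, since each gene had a DHS of at least 74.81 over a TSS. The median top promoter score was 201.98 in each of the 3 alternatives run for it. None of these could move it, since the DHS of Ldha and Pfkp that set it, and those with higher scores, cover starts of coding transcripts. The 61 DHS of the windows became 94 with 50 kb on each side, 35 at or above the median score and 35 with only DHS nearest to the gene itself. The excess of Hk2 over Hk1, a difference of −2 DHS for Hk1 minus Hk2, was −1 with 5 kb on each side, at or above the median score, with peaks closer than 500 bp merged and with the nearest TSS, and −0.45 per 10 kb, a density added after the data were seen. The 8 paralogs with a promoter DHS became 5 at or above the median score. Of 24 alternatives, 15 left the value the same or a count within 1.5 times and 9 moved it. The 15 include those named above whose outcome was fixed in advance. Only the difference between Hk1 and Hk2 has a sign, which none of its 6 alternatives turned. No paired analysis was possible because there is 1 library. The unknown depth limits every statement that no DHS was called, the starts of Hk1 included.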
